A study of Homo sapiens with 6 samples.

Results

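The 36 genes described here carry glucose into the cell, break it down to pyruvate and lactate, export the lactate, and make up part of the response to low oxygen that governs many of these steps. They were chosen by symbol, for their known roles in the pathway, with earlier results of these data known. Each matched 1 Ensembl ID among the 57773 in the deposited table. Of these, 23 act in transport and glycolysis, and 13 act at the entry of pyruvate into mitochondria, in pH control or in the hypoxia response. RPE1 cells are a human line from the retinal pigment epithelium, made immortal with telomerase. All 6 libraries come from RPE1 cultures: 3 were exposed for 24 h to 2.5 µM Nutlin-3, a small molecule that keeps the ubiquitin ligase MDM2 off p53, and 3 received only its solvent, DMSO. All were grown in DMEM with fetal bovine serum, poly(A) RNA was sequenced, and the labels do not say whether replicates were separate cultures, so p-values measure the spread between these libraries.

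In glycolysis, glucose enters through carriers of the SLC2A family, is phosphorylated and split, and yields pyruvate. Lactate dehydrogenase then turns pyruvate into lactate, which leaves through carriers of the SLC16A family, or pyruvate enters the mitochondria unless a pyruvate dehydrogenase kinase closes that route. The hypoxia-inducible factors (HIF) are pairs of an oxygen-labile alpha subunit and a stable partner. Prolyl hydroxylases of the EGLN family mark the alpha subunit for destruction when oxygen is present, and in low oxygen HIF raises transcription of carriers, glycolytic enzymes and their own brakes. Regulation of the alpha subunits is largely at the protein level, which RNA does not show. p53 is known to touch glycolysis through targets such as TIGAR, which lowers the activator of phosphofructokinase.

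The libraries held between 28.4 and 41.0 M reads, recovered from the deposited RPKM. RPKM are reads per kilobase of gene scaled to library size. The authors' RPKM use the whole gene span, introns included, so they can be compared between libraries for 1 gene but not between genes. For levels of different genes, the same reads are given per kilobase of exon, called exon RPKM. As a check of the labels, CDKN1A (p21), a direct p53 target, went from 8.36 ± 0.463 RPKM in DMSO to 60.5 ± 2.34 in Nutlin-3, and MDM2 from 2.31 ± 0.0866 to 8.46 ± 0.225 (mean ± SD, n = 3). Of 14 markers of retinal pigment epithelium, 5 (RPE65, TYR, TYRP1, DCT and TTR) had under 10 reads in every library. RLBP1, BEST1, PMEL, LRAT, SERPINF1 and STRA6 were near the floor, with 3 to 50 reads per library. MITF, OTX2 and RDH5 were expressed, as were the keratins KRT8 and KRT18, and the endothelial markers CDH5 and VWF had under 10 reads in every library. Of the blood markers, PTPRC had under 10 reads in every library and CD34 had 29 to 53 reads. The summed level of the retinal pigment epithelium markers was between 20.4 and 21.9 in DMSO and between 21.3 and 22.2 exon RPKM in Nutlin-3, within which RDH5 rose 1.58-fold (adjusted p = 5.07e-04) and OTX2 fell to 81.9% (adjusted p = 0.0333). That of the 5 epithelial markers was higher with Nutlin-3, between 138.2 and 146.1 against between 80.5 and 87.2, from KRT8 and KRT18, while KRT19, CDH1 and EPCAM had under 10 reads in every library. The 5 mesenchymal markers, mostly VIM, summed to between 928.8 and 1018 in DMSO and between 924.1 and 976.5 in Nutlin-3. VIM did not pass on RPKM, and passed as a fall on recovered reads (limma voom adjusted p = 0.0326). COL1A1, THY1 and CDH2 rose 1.65-fold, 1.33-fold and 1.28-fold (adjusted p = 4.66e-03, 2.11e-04 and 8.49e-04). COL1A2 had 1 to 6 reads per library and was not tested. The part of these marker changes in the results below was not tested. As RNA came from whole cultures, fewer cells of a type and less RNA per cell cannot be told apart.

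With Nutlin-3, the genes of glycolysis did not move as a block: both glucose carriers and 5 of the 15 enzyme genes rose, and 3 enzyme genes fell, among them both enolases. The middle of the pathway and lactate dehydrogenase gave no call in the main fit, limma on log2(RPKM + 0.1). The rises of at least 1.5-fold were in BHLHE40, EPAS1 and P4HA2, from the block of pyruvate entry, pH control and hypoxia response. Of the 11 genes tested in that block, 5 rose and 6 did not pass (45.5% called, beside 39.2% of all genes). Of the 36 genes, 34 passed the filter (a mean of at least 0.1 RPKM), and 13 rose and 5 fell at an adjusted p under 0.05 (limma on log2(RPKM + 0.1), adjusted over all 19886 genes tested). That is 52.9% of the tested members, while 39.2% of all tested genes passed, 20.9% upwards and 18.4% downwards. Requiring a mean of 0.5 RPKM left 28 members, of which 13 rose and 5 fell (64.3%), beside 51.3% of all genes (28.9% upwards, 22.4% downwards). On recovered reads (limma voom, a mean of at least 10 reads) 14 of 35 members rose and 9 fell, beside 26.0% and 24.3% of 20728 genes. The balance of rises and falls depended on scaling. The authors' library sizes were 1.031 to 1.049 times the recovered reads in DMSO and 0.962 to 0.981 times in Nutlin-3; with total recovered reads as library size, an alternative chosen after seeing the data, 8 members rose and 14 fell, beside 14.3% and 26.8% of all genes (41.0% called), and the median of all genes moved from 0.0058 to -0.074. Quantile normalization gave 11 rises and 8 falls, beside 22.2% and 17.7% (40.0% called). The median log2 change of the members in the main fit was 0.0022, beside 0.0058 for all genes tested. Calls with a log2 change of at least 0.5 came to 5 of the 34, beside 11.2% of all genes. Of the 18 calls, 11 held under every alternative that tested the gene (ALDOC fell below the filter of 0.5 RPKM; SLC2A1, PFKM, PKM, EPAS1, P4HA1, P4HA2 and BHLHE40 held upwards, PFKFB4, ALDOC, ENO1 and ENO2 downwards). The groups did not overlap in 25 of 34 members, while 53.3% of all tested genes showed no overlap.

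**Figure D1:**
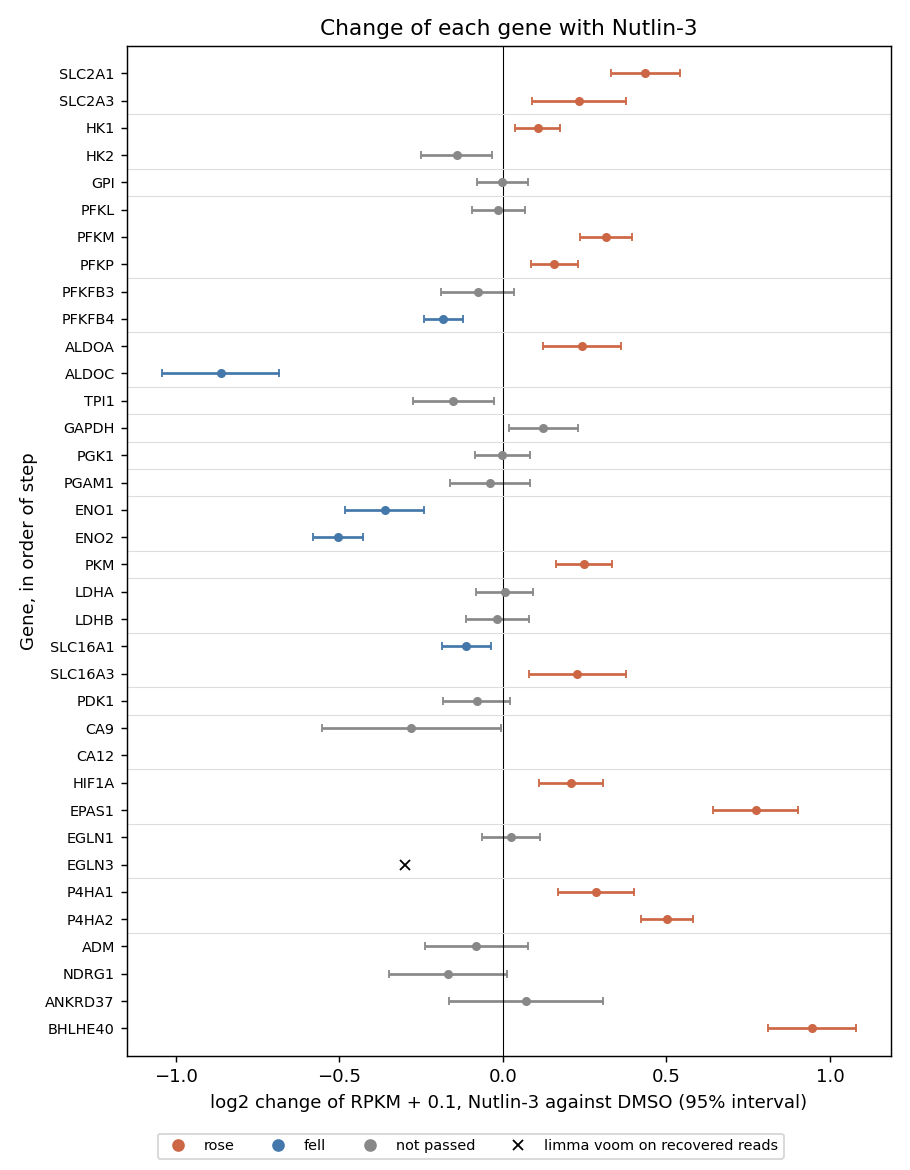
Points give the log2 change of RPKM + 0.1 (Nutlin-3 against DMSO, n = 3 per group) with its 95% interval from limma, in the order of the steps, coloured by whether the gene rose, fell or did not pass. EGLN3 failed the filter and is shown by its change on recovered reads, -0.30, and CA12 has no point. BHLHE40 at 0.95 and ALDOC at -0.86 lie farthest from 0.

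Both glucose carriers among the 36 genes rose. SLC2A1 (ENSG00000117394), the widespread glucose carrier GLUT1, stood at 14.4, 15.3 and 15.7 RPKM in the DMSO libraries and at 19.9, 20.7 and 21.1 RPKM in the Nutlin-3 libraries. Every Nutlin-3 library was above every DMSO library, and the fold was 1.36 (log2 change 0.44, SE 0.042, adjusted p = 1.13e-03). SLC2A3 (ENSG00000059804), the high-affinity carrier GLUT3, read 0.551, 0.583 and 0.556 RPKM in DMSO and 0.648, 0.741 and 0.651 RPKM in Nutlin-3. It rose 1.21-fold, with the groups apart and Nutlin-3 replicate 2 the highest (adjusted p = 0.0261). Its call was lost without DMSO replicate 1, 2 or 3 (adjusted p = 0.0781, 0.0521 and 0.0767) without a filter (adjusted p = 0.0525) and per total recovered reads (0.101). SLC2A3 had 296 to 452 reads per library, fewer than the 508 to 802 reads of its near-identical processed pseudogene SLC2A3P1, so its value is uncertain. With its 3 pseudogenes added, the log2 ratio of mean reads fell from 0.27 to 0.07.

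Hexokinase makes the first phosphorylation. HK1 (ENSG00000156515), the constitutive form, stood at 2.40, 2.32 and 2.36 RPKM in DMSO and at 2.50, 2.57 and 2.58 RPKM in Nutlin-3, a small rise of 1.08-fold (adjusted p = 0.0286). HK2 (ENSG00000159399), the inducible form, read 0.641, 0.601 and 0.579 RPKM in DMSO and 0.533, 0.534 and 0.556 RPKM in Nutlin-3. Its log2 change was -0.14 with a 95% interval from -0.25 to -0.03 and did not pass (adjusted p = 0.0510). HK1 was lost without DMSO replicate 2 or 3 or Nutlin-3 replicate 2 or 3 (adjusted p from 0.0774 to 0.0999), and per total recovered reads its log2 change was 0.01 (adjusted p = 0.655). HK2 passed as a fall without DMSO replicate 3 (adjusted p = 0.0474), after median-of-ratios scaling (0.0441), per total recovered reads (9.12e-03) and with reads as the values (limma voom adjusted p = 6.23e-03). GPI, the isomerase of the next step, did not pass, and its log2 change of -0.0013 had an interval from -0.08 to 0.08. Per total recovered reads it was -0.10 (adjusted p = 0.0348), where the median of all genes was -0.074. GPI shares 5.1% of its exon length with ENSG00000266953 on the same strand, whose reads came to 2969 to 4525 per library against 5869 to 8481 for GPI.

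Phosphofructokinase commits sugar to glycolysis, and 2 of its 3 subunit genes rose. PFKM (ENSG00000152556), the muscle-type subunit, stood at 1.98, 1.88 and 1.99 RPKM in DMSO and at 2.42, 2.50 and 2.45 RPKM in Nutlin-3. The groups lay far apart, with a 1.26-fold rise (log2 change 0.32, SE 0.031, adjusted p = 1.24e-03). PFKP (ENSG00000067057), the platelet-type subunit and the highest of the 3 per exon length, read 4.169, 4.0 and 4.033 RPKM in DMSO and 4.51, 4.49 and 4.65 RPKM in Nutlin-3, a rise of 1.12-fold (adjusted p = 9.54e-03) that was lost per total recovered reads (0.0861). PFKL, the liver-type subunit, did not pass, with a log2 change of -0.01 and an interval from -0.10 to 0.07. Per total recovered reads it passed as a fall (-0.11, adjusted p = 0.0324), where the median of all genes was -0.074. PFKM shares 8.6% of its exon length with SENP1 on the opposite strand, which fell (log2 change -0.52, adjusted p = 9.29e-04). The library kit keeps strand, and whether the counting used it was not stated.

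The bifunctional PFKFB enzymes set the activator of phosphofructokinase. PFKFB4 (ENSG00000114268) stood at 0.961, 0.982 and 0.961 RPKM in DMSO and at 0.845, 0.842 and 0.839 RPKM in Nutlin-3. It fell to 87.0% of its DMSO level with very little spread inside either group (log2 change -0.18, adjusted p = 2.94e-03). PFKFB3, its strongly kinase-biased relative, did not pass (log2 change -0.08, interval from -0.19 to 0.04).

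Both aldolase genes changed, in opposite directions and at very different levels. ALDOA (ENSG00000149925), the ubiquitous form, read 38.5, 38.2 and 38.9 RPKM in DMSO and 42.6, 46.3 and 47.8 RPKM in Nutlin-3. It rose 1.18-fold (adjusted p = 0.0124), a call lost under quantile normalization (adjusted p = 0.0785). ALDOA shares 42.3% of its exon length with ENSG00000285043 on the same strand and 13.3% with ENSG00000274904 on the opposite strand. Neither ID has deposited RPKM. ALDOC (ENSG00000109107), the brain form, stood at 0.319, 0.364 and 0.350 RPKM in DMSO and at 0.137, 0.162 and 0.135 RPKM in Nutlin-3. It fell to 42.0% of its DMSO level (log2 change -0.86, SE 0.071, adjusted p = 7.07e-04), on 17 to 56 reads per library, and per exon length it was 0.285% of both aldolases in DMSO.

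The middle of the pathway, from triose phosphates to 2-phosphoglycerate, gave no call in the main fit. TPI1, the isomerase of the triose phosphates, stood at 136.5, 126.0 and 129.6 RPKM in DMSO and at 111.8, 118.4 and 123.1 RPKM in Nutlin-3. Its groups did not overlap, yet its log2 change of -0.15 (interval -0.27 to -0.03) did not pass (adjusted p = 0.0610). It passed as a fall on recovered reads (limma voom adjusted p = 1.50e-03) and where only genes above 0.5 RPKM were fitted (adjusted p = 0.0473). GAPDH, which makes NADH at the next step, had the highest level of all 36 genes, 1106 ± 32.0 exon RPKM in DMSO. It read 763.5, 720.5 and 740.3 RPKM in DMSO and 767.3, 821.7 and 836.6 RPKM in Nutlin-3, where replicate 1 lay just above the highest DMSO library. Its log2 change of 0.12 (interval 0.02 to 0.23) did not pass (adjusted p = 0.0685), passed upwards without Nutlin-3 replicate 1 (adjusted p = 0.0279) and on recovered reads (limma voom adjusted p = 3.003e-03), and took the opposite sign under quantile normalization (-0.04, adjusted p = 0.229). PGK1, the first enzyme of the pathway to make ATP, had a log2 change of -0.0012 (interval -0.09 to 0.08), and PGAM1, the mutase, -0.04 (interval -0.16 to 0.08). Per total recovered reads TPI1, PGK1 and PGAM1 passed as falls (-0.25, -0.10 and -0.13, adjusted p = 5.81e-03, 0.0379 and 0.0446). The median of all genes at that scaling was -0.074.

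Both genes of enolase, which makes phosphoenolpyruvate, fell. ENO1 (ENSG00000074800), the ubiquitous form, stood at 95.04, 88.74 and 90.7 RPKM in DMSO and at 67.2, 72.6 and 73.9 RPKM in Nutlin-3. Its highest Nutlin-3 library was far below its lowest DMSO library, and the level fell to 77.9% (log2 change -0.36, SE 0.048, adjusted p = 3.24e-03). ENO2 (ENSG00000111674), the neuronal form, read 12.5, 12.1 and 11.8 RPKM in DMSO and 8.48, 8.47 and 8.60 RPKM in Nutlin-3. It fell to 70.2% (log2 change -0.50, SE 0.030, adjusted p = 2.78e-04). Pyruvate kinase, the step that follows, went the other way. PKM (ENSG00000067225) stood at 79.4, 77.9 and 79.7 RPKM in DMSO and at 89.8, 95.7 and 96.2 RPKM in Nutlin-3, and rose 1.19-fold (log2 change 0.25, SE 0.033, adjusted p = 3.45e-03).

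The 15 genes of the steps from hexokinase to pyruvate kinase took 1.10 ± 0.0163% of all recovered reads in DMSO and 1.08 ± 0.0341% in Nutlin-3 (n = 3). The libraries ranged from 1.09% to 1.12% in DMSO and from 1.04% to 1.10% in Nutlin-3, so the groups overlapped (2-sided exact permutation test, p = 0.5). As a share of summed RPKM the values were 0.748 ± 0.00942% and 0.703 ± 0.0289%, without overlap (2-sided exact permutation p = 0.1), and without Nutlin-3 replicate 1 the difference in read share shrank from -0.0216 to -0.00224 percentage points. Within that total the parts shifted. Enolase took 16.9 ± 0.207% of these reads in DMSO and 12.4 ± 0.0851% in Nutlin-3, and PKM 24.4 ± 0.387% and 27.7 ± 0.156%. Both shifts separated all 3 libraries of each group (2-sided exact permutation p = 0.1, the smallest that 3 against 3 libraries allow).

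**Figure D2:**
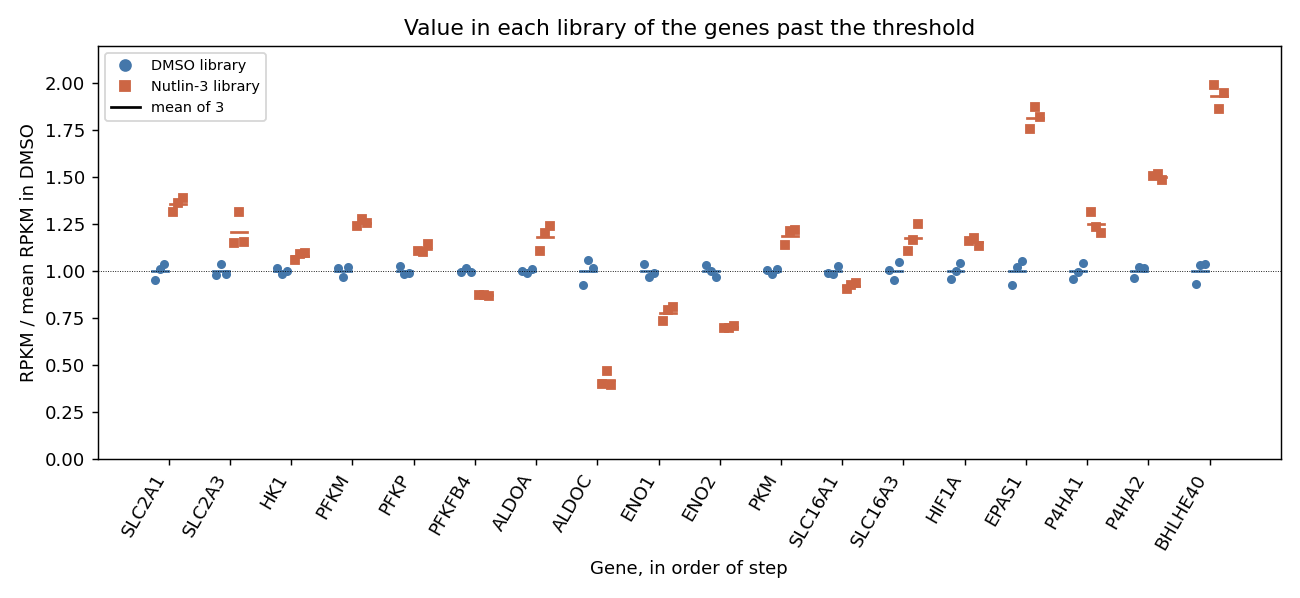
Each symbol is 1 library: the RPKM of a gene that passed the threshold, divided by its mean in DMSO, with the mean of 3 as a line. The Nutlin-3 libraries of ENO1 and ENO2 sit at 77.9% and 70.2% of the DMSO mean on average, and those of BHLHE40 and EPAS1 average 1.93 and 1.82 times that mean.

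Lactate dehydrogenase did not pass in either gene. LDHA, the form that favours lactate, read 61.3, 57.5 and 60.1 RPKM in DMSO and 58.2, 60.7 and 60.7 RPKM in Nutlin-3, with overlapping groups. Its log2 change of 0.0055 had an interval from -0.08 to 0.09, and that of LDHB, -0.02, from -0.11 to 0.08. LDHB shares 33.4% of its exon length with ENSG00000285854 on the same strand, an ID without deposited RPKM. Quantile normalization gave a call for LDHA, downwards (-0.09, adjusted p = 0.0109). Per total recovered reads both passed as falls (LDHA -0.09, LDHB -0.11, adjusted p = 0.0374 and 0.0353), where the median of all genes was -0.074. The lactate carriers moved apart. SLC16A3 (ENSG00000141526), the exporter MCT4, stood at 6.83, 6.46 and 7.13 RPKM in DMSO and at 7.54, 7.94 and 8.50 RPKM in Nutlin-3, and rose 1.17-fold (adjusted p = 0.0307). SLC16A1 (ENSG00000155380), the bidirectional carrier MCT1, read 1.94, 1.92 and 2.01 RPKM in DMSO and 1.77, 1.82 and 1.83 RPKM in Nutlin-3, and fell to 92.2% (adjusted p = 0.0330). SLC16A3 was lost without DMSO replicate 1 or 2 or Nutlin-3 replicate 2 or 3 (adjusted p from 0.0715 to 0.0840) and with no filter (0.0537), while it held without DMSO replicate 3 or Nutlin-3 replicate 1. It was also lost per total recovered reads (adjusted p = 0.091). SLC16A3 shares 5.4% of its exon length with CSNK1D on the opposite strand, whose reads came to 3190 to 4628 per library. SLC16A1 was lost without any 1 of the 6 (adjusted p from 0.0584 to 0.0932).

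Many of these enzymes have processed pseudogenes that could take or give reads. The reads counted separately for pseudogenes named after the gene came, as a ratio to the gene's own reads in DMSO, to 3.63% for GAPDH, 8.97% for TPI1, 8.72% for LDHA and 1.40% for ENO1. Adding them moved the log2 ratio of mean reads of TPI1 from -0.1507 to -0.1510 and that of ENO1 from -0.361 to -0.360.

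Several steps have more than 1 gene, and the balance inside each pair was compared as the log2 ratio of RPKM + 0.1 within a library, which depends little on how libraries were scaled. In 13 of 13 pairs the groups did not overlap, and each gave the smallest p possible, 0.1 (2-sided exact permutation test, adjusted p = 0.1 over the pairs). No pair can therefore pass a threshold of 0.05 in this design. How often other pairs of genes do not overlap was not measured, while 53.3% of all tested single genes showed no overlap. The 13 pairs include LDHB and LDHA, whose log2 ratio changed by only -0.02. Without the pseudocount SLC2A1 and SLC2A3 overlapped (exact permutation p = 0.2), and the ratio of CA12 to CA9, both near the floor, changed sign from 0.24 to -0.46. The sizes differed. PFKM rose from 47.2 ± 1.11% to 53.2 ± 0.491% of PFKM plus PFKL, and SLC16A3 from 59.8 ± 0.694% to 65.4 ± 0.991% of both lactate carriers (reads per kb of exon, n = 3). HK2 went from 10.7 ± 0.403% to 9.02 ± 0.148% of both hexokinases. EPAS1 went from 8.26 ± 0.210% to 12.4 ± 0.329% of both HIF alpha subunits, a log2 ratio change of 0.56. ENO2 shifted little against ENO1, from 8.18 ± 0.195% to 7.45 ± 0.321%, since both fell, and LDHB was 55.5 ± 0.347% and 55.1 ± 0.0916% of lactate dehydrogenase.

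**Figure D3:**
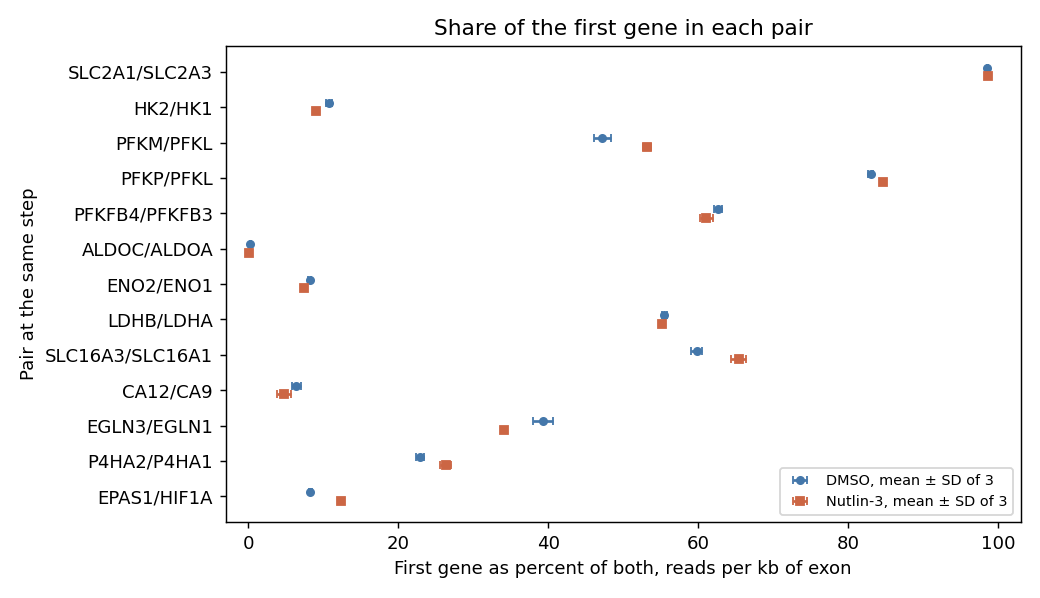
For each of 13 pairs of genes at the same step, the share of the first gene in the sum of both (percent, from reads per kb of exon) is given as mean ± SD of 3 libraries. PFKM against PFKL moves from 47.2% to 53.2% and SLC16A3 against SLC16A1 from 59.8% to 65.4%, while LDHB against LDHA stays near 55.5%.

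PDK1, the kinase that closes pyruvate dehydrogenase, read 0.298, 0.283 and 0.286 RPKM in DMSO and 0.269, 0.263 and 0.272 RPKM in Nutlin-3. Its groups did not overlap, but the log2 change of -0.08 (interval -0.18 to 0.02) did not pass (adjusted p = 0.185). Per total recovered reads it passed as a fall (-0.15, adjusted p = 0.0326), where the median of all genes was -0.074. The carbonic anhydrases CA9 and CA12, which help to control pH at the cell surface, were near the floor. CA9 had 19 to 53 reads per library and a log2 change of -0.28 (interval -0.55 to -0.0048, adjusted p = 0.1001). It shares 38.5% of its exon length with ARHGEF39 on the opposite strand, which fell (log2 change -1.04, adjusted p = 1.07e-03); the part of those reads in CA9 was not tested. CA12 had 5 to 17 reads per library and was not tested.

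Both HIF alpha subunit genes rose. EPAS1 (ENSG00000116016), which encodes the alpha subunit of HIF2, stood at 0.598, 0.658 and 0.678 RPKM in DMSO and at 1.13, 1.21 and 1.17 RPKM in Nutlin-3. Its lowest Nutlin-3 library was far above its highest DMSO library, a 1.82-fold rise (log2 change 0.77, SE 0.051, adjusted p = 3.73e-04). HIF1A (ENSG00000100644), which encodes the alpha subunit of HIF1, read 8.54, 8.90 and 9.29 RPKM in DMSO and 10.3, 10.5 and 10.1 RPKM in Nutlin-3. It rose 1.16-fold (log2 change 0.21, adjusted p = 9.92e-03), a call lost under quantile normalization (adjusted p = 0.0588) and per total recovered reads (0.0787). Per exon length HIF1A remained the higher of the pair, at 105.6 against 14.9 exon RPKM in Nutlin-3. HIF1A shares 2.9% of its exon length with ENSG00000258964 on the same strand, whose reads came to 9818 to 14241 per library, against 13991 to 19817 for HIF1A.

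Of the prolyl hydroxylases that mark HIF for destruction, the members EGLN1 and EGLN3 were not called as rises. EGLN1, the main oxygen sensor in most cells, did not pass (log2 change 0.03, interval -0.06 to 0.11). EGLN3, a sensor that HIF itself induces, spans 538.5 kb and so failed the filter on RPKM, although it had 778 to 1366 reads per library. It read 0.0600, 0.0558 and 0.0590 RPKM in DMSO and 0.0466, 0.0483 and 0.0475 RPKM in Nutlin-3, with no overlap. On recovered reads it fell (log2 change -0.30, limma voom adjusted p = 2.69e-05), in a test that called 50.3% of all genes and 23 of 35 members.

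The collagen prolyl hydroxylases, which use oxygen to stabilise collagen, rose. P4HA2 (ENSG00000072682) stood at 0.471, 0.499 and 0.495 RPKM in DMSO and at 0.736, 0.741 and 0.724 RPKM in Nutlin-3. The groups were well apart, with a 1.503-fold rise (log2 change 0.50, SE 0.031, adjusted p = 3.11e-04). P4HA1 (ENSG00000122884) read 0.660, 0.688 and 0.721 RPKM in DMSO and 0.906, 0.852 and 0.830 RPKM in Nutlin-3, and rose 1.251-fold (log2 change 0.29, adjusted p = 6.41e-03).

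BHLHE40 had the largest rise of the 36 genes. BHLHE40 (ENSG00000134107), a transcriptional repressor known as a target of both HIF and p53 and as a part of the circadian clock, stood at 8.30, 9.18 and 9.25 RPKM in DMSO and at 17.7, 16.6 and 17.4 RPKM in Nutlin-3. It rose 1.93-fold (log2 change 0.95, SE 0.053, adjusted p = 2.40e-04). ADM, NDRG1 and ANKRD37, grouped here with BHLHE40 as HIF targets outside glycolysis, did not pass. ADM, the vasodilator adrenomedullin, had overlapping groups and a log2 change of -0.08 (interval -0.24 to 0.08). NDRG1, a stress-induced gene, read 0.173, 0.200 and 0.184 RPKM in DMSO and 0.165, 0.141 and 0.157 RPKM in Nutlin-3, with a log2 change of -0.17 (adjusted p = 0.127), and passed as a fall on recovered reads (-0.26, limma voom adjusted p = 7.49e-03). ANKRD37, an ankyrin repeat protein often used as a reporter of hypoxia, had 28 to 39 reads per library and a log2 change of 0.07 (interval -0.16 to 0.31), and 35.2% of its exon length lies in UFSP2 on the opposite strand.

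**Figure D4:**
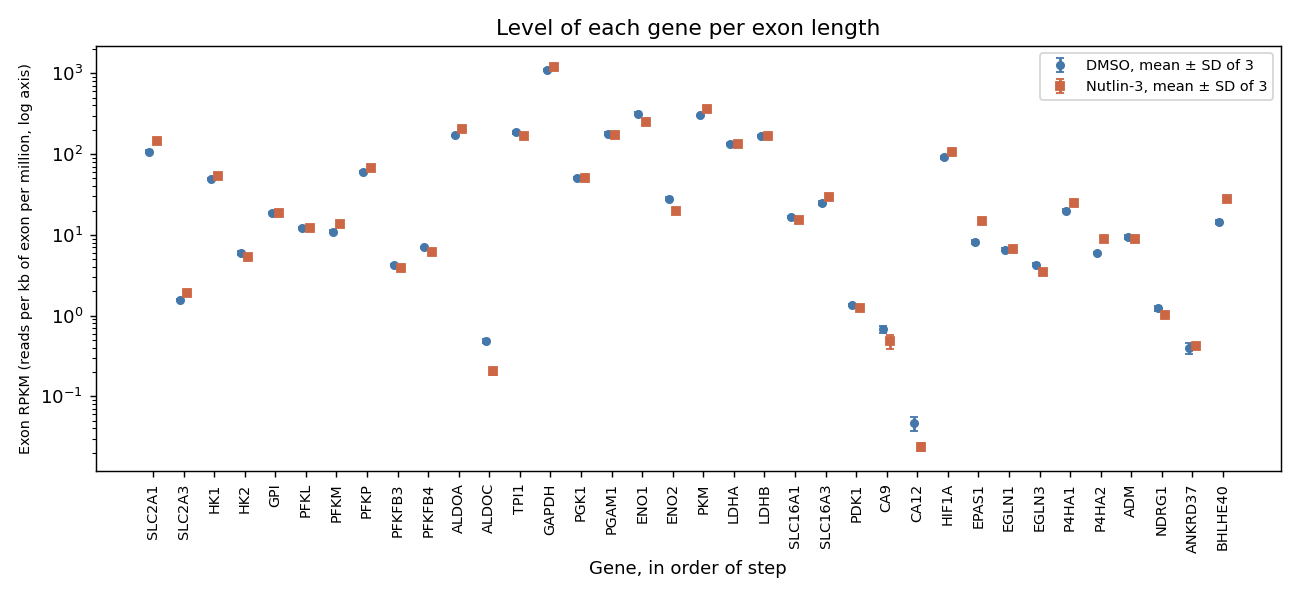
The level of each gene in exon RPKM (log axis), mean ± SD of 3 libraries per group, in the order of the steps. GAPDH is highest at 1106 in DMSO and CA12 lowest at 0.0463, and for most genes both groups lie close together on this scale.

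HIF binds the core motif ACGTG or GCGTG. The promoters of 5 members, all with a match, are given as picked examples from genes that rose, fell or did not pass. The stretches are the 250 bases before the RefSeq start on GRCh38.p14, on the gene's strand, with each match of that motif on either strand in capitals. The E-box CACGTG holds the first form on both strands. BHLHE40 lies at chr3:4979187-4979436 (plus strand), P4HA1 at chr10:73096867-73097116 (minus strand), ENO2 at chr12:6914330-6914579 (plus strand), ENO1 at chr1:8878687-8878936 (minus strand) and ANKRD37 at chr4:185396591-185396840 (plus strand).
BHLHE40 (rose): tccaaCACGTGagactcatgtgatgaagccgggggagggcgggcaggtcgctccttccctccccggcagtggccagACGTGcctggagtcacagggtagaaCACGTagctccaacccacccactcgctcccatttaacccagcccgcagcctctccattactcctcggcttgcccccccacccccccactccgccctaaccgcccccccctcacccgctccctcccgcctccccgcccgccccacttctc
P4HA1 (rose): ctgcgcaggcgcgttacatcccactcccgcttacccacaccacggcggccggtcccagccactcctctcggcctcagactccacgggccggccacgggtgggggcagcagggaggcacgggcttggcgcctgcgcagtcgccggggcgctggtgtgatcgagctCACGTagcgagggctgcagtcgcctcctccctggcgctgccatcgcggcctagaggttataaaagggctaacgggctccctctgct
ENO2 (fell): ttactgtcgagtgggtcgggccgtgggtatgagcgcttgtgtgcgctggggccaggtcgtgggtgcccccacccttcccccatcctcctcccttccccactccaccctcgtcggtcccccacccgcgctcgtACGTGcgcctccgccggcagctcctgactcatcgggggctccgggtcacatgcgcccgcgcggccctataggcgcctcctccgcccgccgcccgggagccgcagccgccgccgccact
ENO1 (fell): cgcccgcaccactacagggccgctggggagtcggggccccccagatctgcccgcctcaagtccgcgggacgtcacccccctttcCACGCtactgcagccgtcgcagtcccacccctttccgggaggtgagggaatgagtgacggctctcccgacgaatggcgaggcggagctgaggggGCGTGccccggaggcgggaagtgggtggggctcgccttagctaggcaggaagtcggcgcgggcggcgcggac
ANKRD37 (did not pass): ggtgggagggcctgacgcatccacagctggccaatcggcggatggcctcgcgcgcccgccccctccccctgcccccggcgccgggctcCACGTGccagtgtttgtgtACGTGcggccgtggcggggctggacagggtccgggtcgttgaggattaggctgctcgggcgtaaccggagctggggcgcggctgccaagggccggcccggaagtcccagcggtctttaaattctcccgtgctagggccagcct

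BHLHE40 held an E-box and 2 single matches, ANKRD37 an E-box and 1 match, P4HA1 and ENO2 1 match each, and ENO1 2 matches of the GCGTG form. RefSeq promoters were found for 33 of the 36 genes, with 60 starts. ACGTG on either strand stood in 22 of these 60 promoters (36.7%) and in 18.5% of all 35116 promoters. For ACGTG or GCGTG the counts were 35 of 60 (58.3%) and 43.2%. By gene, a match stood before at least 1 start in 9 of 12 genes that rose, in 4 of 4 that fell and in 13 of 15 that did not pass. Those without a match were SLC2A1, PKM and P4HA2, which rose, and LDHB and PGAM1, which did not pass. The share by gene was not computed over all genes. As the members had 1 to 7 starts, the 43.2% per promoter is not a background for these counts. A match of letters is not a site of binding, and starts of 1 gene overlap, so these counts are a description.

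The other genes of the pathway were read from lists written with earlier results of these data known. For comparison with their counts, 39.2% of all tested genes were called (20.9% upwards, 18.4% downwards). Per total recovered reads 41.0% were called (14.3% upwards, 26.8% downwards). Of 25 other genes of glycolysis and gluconeogenesis, 9 were tested, 4 rose and 1 fell (55.6% called), and 2 rose and 3 fell per total recovered reads. TIGAR, the p53 target that lowers the activator of phosphofructokinase, rose from 0.359 ± 0.0159 to 0.965 ± 0.0226 RPKM, or 2.69-fold (adjusted p = 9.63e-05). G6PC3, the ubiquitous glucose-6-phosphatase, rose 1.39-fold (adjusted p = 1.36e-03). PFKFB2 rose 1.16-fold, a call that ended with no filter (adjusted p = 0.0726), per total recovered reads (0.203) and without any 1 library except Nutlin-3 replicate 3. PCK2, the mitochondrial phosphoenolpyruvate carboxykinase, fell to 56.0% (adjusted p = 2.72e-04). Of 15 other carriers, 7 were tested, 4 rose and none fell (57.1% called), also per total recovered reads. SLC2A6, SLC2A10 and SLC2A11 rose 1.48-fold, 1.36-fold and 1.29-fold (adjusted p = 1.63e-03, 8.03e-03 and 1.37e-03).

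Branches off the pathway went both ways. Of 9 genes of the pentose phosphate pathway, all tested, 5 rose and 2 fell (77.8% called), and 4 rose and 4 fell per total recovered reads. H6PD, which acts in the endoplasmic reticulum, rose 1.43-fold (adjusted p = 1.80e-03) and transketolase (TKT) 1.24-fold. SHPK fell to 85.6% and RPIA to 81.2%, the latter a call lost without any 1 of the 6 libraries and under quantile normalization (adjusted p = 0.0862). Of 11 tested genes that take pyruvate into mitochondria, 4 rose and 1 fell (45.5% called, near the share of all genes), and 2 rose and 2 fell per total recovered reads. PDP1, the phosphatase that reopens pyruvate dehydrogenase, rose 1.34-fold (adjusted p = 3.85e-04), PDHB 1.22-fold and PDK2 1.16-fold, the last lost without DMSO replicate 2 or Nutlin-3 replicate 2 or 3 and per total recovered reads (adjusted p = 0.132). PDP2 fell to 90.1% and was lost without DMSO replicate 3 or Nutlin-3 replicate 2.

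Of 13 tested genes of the HIF machinery, 5 rose and 1 fell (46.2% called, beside 39.2% of all genes). Per total recovered reads 4 rose and 7 fell (84.6% called, beside 41.0% of all genes). With limma voom on recovered reads 5 rose and 6 fell (84.6% called, beside 50.3%). CITED2, which competes with HIF for its coactivators and is itself a HIF target, rose from 58.7 ± 3.43 to 102.0 ± 6.02 RPKM (adjusted p = 6.03e-04). ELOB, a subunit of the ligase that removes HIF alpha, rose 1.39-fold and P4HTM, a membrane-bound prolyl hydroxylase, 1.32-fold. VHL, the adaptor of that ligase, fell to 91.7% (adjusted p = 0.0441), a call that ended without any 1 of the 6 libraries, and also with no filter (adjusted p = 0.059) or after quantile normalization (0.0643). Of 36 tested genes in a list of other HIF targets, 23 rose and 3 fell (72.2% called), with a median log2 change of 0.30, and per total recovered reads 21 rose and 5 fell. DDIT4 rose 2.01-fold and CITED2 1.74-fold, both of which are targets of other pathways too. HILPDA, a lipid droplet protein, fell from 2.84 ± 0.274 to 1.86 ± 0.176 RPKM (adjusted p = 6.75e-03), ZNF395 to 70.8% and the transferrin receptor TFRC to 88.2%. Of 7 tested regulators of glucose sensing and of the MYC network, 2 rose and none fell (28.6% called, beside 39.2% of all genes). Per total recovered reads 1 rose and 4 fell (71.4% called, beside 41.0%). With limma voom on recovered reads 4 of 9 rose and 1 fell (55.6% called, beside 50.3%). MXD4, which opposes MYC, rose 1.87-fold (adjusted p = 6.30e-04) and MAX 1.15-fold, the latter lost without DMSO replicate 1 or 2 or Nutlin-3 replicate 1 or 3 and per total recovered reads (adjusted p = 0.112). MYC did not pass (log2 change -0.13, adjusted p = 0.0501), and passed as a fall on recovered reads (limma voom adjusted p = 0.0168).

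**Figure D5:**
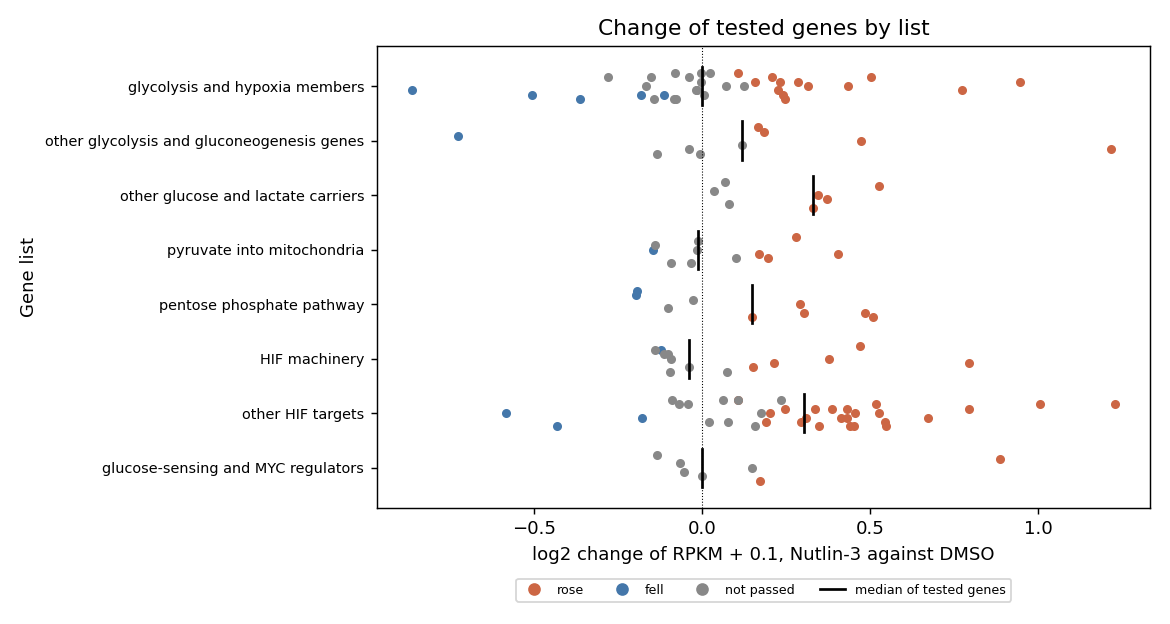
Each point is a tested gene, at its log2 change of RPKM + 0.1, in 1 of 8 lists, coloured by its call, with the median of the list as a line. The 34 tested members have a median of 0.0022 and points on both sides of 0, and the 36 tested genes of the list of other HIF targets a median of 0.30.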

How the data were processed

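Poly(A) RNA of 6 RPE1 libraries was measured by stranded RNA sequencing. The authors deposited 1 table of RPKM per gene ID, 1 column per library; the submitters' processing notes name CASAVA 1.8.2, TopHat2, edgeR and hg19, without roles. Which counter, annotation and strand setting were used is not stated there. RPKM times the GENCODE 29 gene span gave whole reads for 90.3% of low values (under 20 reads, within 0.01), and times merged exon length for 32.9%, so the deposited RPKM were made per gene span. Whole reads were recovered that way, or from ratios between libraries where the span did not match. The authors' library sizes differed from the totals of these reads, and the total as library size was added as an alternative after seeing the data.

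Genes averaging 0.1 RPKM or more were tested as log2(RPKM + 0.1) with limma 3.58.1 (R 4.3.3; mean-variance trend, Benjamini-Hochberg over all genes, adjusted p under 0.05, two-sided), and every adjusted p in the text is from limma unless a permutation test is named. Fold changes on this scale understate those of low genes. limma voom on recovered reads, other pseudocounts, filters and scalings, a replicate term and leaving out each library were alternatives. The fit was also run on simulated data with few changed genes and known library sizes, which cannot test the choice of scaling. Ratios and shares used exact permutation tests.

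The 36 genes and all lists were chosen with earlier results of these data known. Every member was to be named, and of each other list up to 3 rises and 3 falls past the threshold. Of the genes this rule picks, 2 are not reported here. Symbols matched 52338 IDs; 2 listed genes that matched none were not analysed here. No library pair within a group agreed within sampling noise (chi-square per gene 1.63 to 4.82, against 50.6 to 76.9 between groups), so none was treated as 1 library deposited more than once; this does not show separate cultures. Promoters are from RefSeq (GRCh38.p14).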

Additional observations from a re-analysis of the deposited data

How the results depend on the processing

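The count of members past the threshold, 18, was 14 to 22 over the alternatives on RPKM and 23 on recovered reads, and the count over all genes, 7803, was 5520 to 8158 on RPKM and 10424 on recovered reads, all within 1.5 times. All 18 called members kept their direction in every alternative that tested them. Total recovered reads as library size, added after seeing the data, ended 5 calls (SLC2A3, HK1, PFKP, SLC16A3 and HIF1A), gave 9 falls that had not passed (HK2, GPI, PFKL, TPI1, PGK1, PGAM1, LDHA, LDHB and PDK1), and turned LDHA to -0.09124 and EGLN1 to -0.06039. The median log2 change of all genes with that library size was -0.074. Log2 changes near 0 changed sign when 1 library was left out, none past the threshold: GPI ran from -0.02301 to 0.02213, PFKL from -0.03447 to 0.003952, PGK1 from -0.01708 to 0.02287, LDHA from -0.02078 to 0.02571 and LDHB from -0.04796 to 0.004515. Quantile normalization turned GAPDH to -0.04491 and LDHA to -0.0938, and gave PGAM1 a call downwards (-0.1566, adjusted p = 0.004588); the cause was not tested. The log2 ratio of CA12 to CA9 was 0.2413 with the pseudocount and -0.4576 without it or per exon length, since both genes lie near or below the size of the pseudocount. Low depth limits CA12, CA9, ANKRD37 and ALDOC, with at most 56 reads in any library.

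Libraries with the same replicate number did not deviate together (Pearson r of -0.034, -0.0233 and -0.0134 across genes), so the numbers give no pairing. With the replicate block 14 members (10 up, 4 down) and 5520 genes passed, and HK1 (adjusted p = 0.1143), PFKP (0.05259), SLC16A1 (0.08481) and HIF1A (0.05051) did not. Of the other genes named, the block ended the calls of PFKFB2 (0.101), PDHB (0.0509), PDP2 (0.0566), RPIA (0.116), VHL (0.0751) and TFRC (0.0655).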
